A study of Rattus norvegicus with 12 samples.

Results

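Ultraconserved regions are stretches of the genome that are identical in human, mouse and rat, and many of them are copied into RNA from one strand or from both. These RNAs, the transcribed ultraconserved regions, are counted among the long noncoding RNAs (LncRNAs) and carry the number of their region after the prefix uc., with numbers running in the order of the regions along the human chromosomes. Several lie in or beside genes for RNA-binding proteins and for developmental transcription factors, and some have been described as regulators in tumor cells, in nerve and in intestinal epithelium. The Rat LncRNA Array v3.0 carries 959 probes for them. They were taken as every probe that is not a control and whose name gives uc., a number and a strand sign, out of 38804 probes that are not controls and 10333 LncRNA probes. The + strand had 479 probes and the - strand 480, which made 479 pairs of a + and a - probe with the same number, while uc.404 had the - probe alone. The sign is that of the probe name, and the genome whose strand it follows is not given in the sources used here. Probe sequences and positions were not used here.

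The RNA came from whole retinas of 12 male Wistar rats, with 1 rat per array and 4 rats in each group. Rats of the Norm group were normal and age-matched. The rats of the other groups had been made diabetic with streptozotocin, an agent that destroys the insulin-producing beta cells. Those of the Diab group stayed in poor glycemic control for 8 months, and those of the Rev group were in poor control for 4 months and then in good control, kept with insulin, for 4 months. Cy3-labeled RNA of each rat was hybridized to an array of its own, and the 4 arrays of a group were scanned together on 1 slide, which means that an effect of the slide cannot be told apart from one of the group. The files pair 30 probes with gene symbols, and 0 of 32 retinal, vascular, lens and blood markers were among them, so the tissue label could not be checked against its markers.

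Signal before normalization was lowest in the Norm group, with a median of 61.3 to 238 per array over the LncRNA and mRNA probes, against 304 to 408 in the Diab group and 139.5 to 374 in the Rev group. The dimmest arrays were those of Norm replicates 3 and 4 and of Rev replicate 3. The Rev replicate 3 array also stood farthest from its group: the SD of the deviations of the uc. probes from their group mean was 0.72 on the log2 scale there and 0.28 to 0.47 on the other arrays. All levels below are on the log2 scale after quantile normalization, which gives every array the same distribution of values.

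Most of the uc. probes gave a signal in the rat retina, and the shares detected were about equal on the + and the - strand. A probe counts as detected on an array when the scanner software calls its spot well above background. Binding of other RNA to the probes was not tested, so detection is of a signal and does not by itself show transcription of that strand. Of the 959 uc. probes, 873 were detected on 3 or more arrays (91.0%), 438 on the + strand (91.4%) and 435 on the - strand (90.6%). On all 12 arrays, 612 were detected (63.8%), 304 on the + strand and 308 on the - strand, and 62 were detected on 0 arrays (6.47%). Of the other LncRNA probes, 93.5% were detected on at least 3 arrays and 73.3% on all 12, and of the mRNA probes 97.8% and 90.4%. The uc. probes were thus detected less often on all 12 arrays than the other probes of the array, a comparison of shares with no test, since probes are not replicates.

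Fewer uc. probes were detected on the Norm arrays than on any Diab or Rev array. On the Norm arrays 768, 792, 631 and 667 uc. probes were detected, which is 65.8% to 82.6% of them. The Diab arrays showed 853, 853, 857 and 880 and the Rev arrays 841, 846, 819 and 866, so that neither group overlapped the Norm group. The mean was 74.5% ± 8.10 (SD, n = 4) for the Norm, 89.8% ± 1.35 for the Diab and 87.9% ± 2.01 for the Rev group. Other LncRNA probes moved in the same direction, from 75.3% to 88.1% on the Norm arrays to 91.7% to 94.3% on the Diab arrays. So did the mRNA probes, from 91.2% to 96.2% on the Norm arrays to 97.2% to 98.0% on the Diab arrays, so the shift was not particular to uc. or LncRNA probes. In the bulk RNA of a retina, fewer cells of a type and less RNA per cell cannot be told apart, and the part that array brightness had in these shares was not tested.

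**Figure D1:**
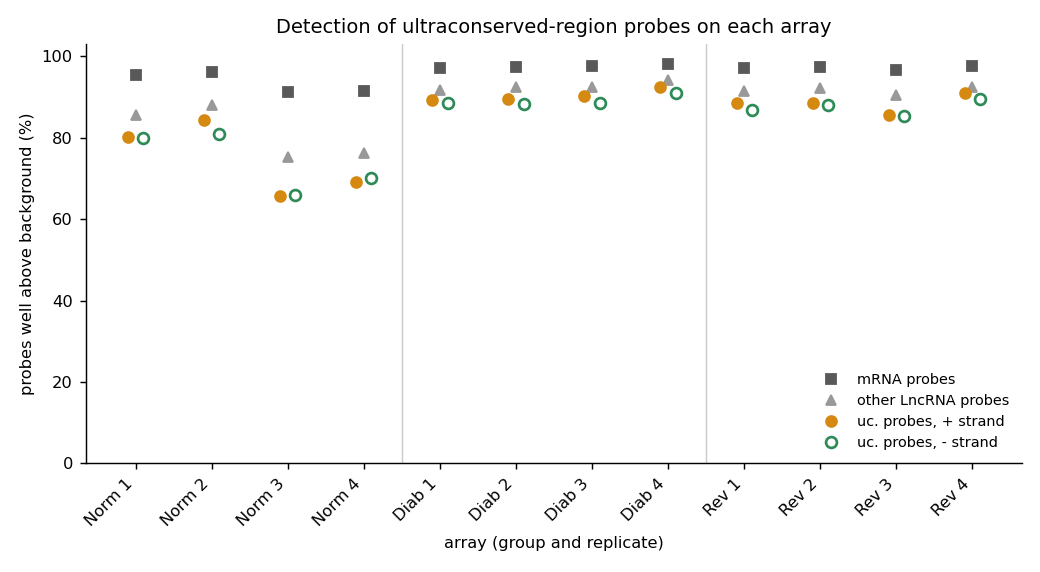
Share of probes well above background (%, y axis) on each of the 12 arrays (x axis), for the uc. probes of the + strand and of the - strand, the other LncRNA probes and the mRNA probes. On every array the strands lie close together and below the other LncRNA and mRNA probes, and the Norm arrays, above all replicates 3 and 4, lie below the Diab and Rev arrays.

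In all, 45 uc. probes (4.69%) were detected on 0 Norm and on all 4 Diab arrays, and 0 showed the opposite pattern. The share was 3.21% among the other LncRNA probes and 0.87% among the mRNA probes. Between the Norm and the Rev group, 22 uc. probes (2.29%) were detected on 0 Norm and 4 Rev arrays, against 2.05% of the other LncRNA probes, and 0 showed the opposite pattern. No uc. probe was detected on all arrays of one of the diabetic groups and on 0 arrays of the other. Detection is called before normalization, where the Norm group had the lowest signals, and the part of array brightness in these counts was not tested.

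In 403 of the 479 pairs (84.1%) both strands were detected on at least 3 arrays, in 35 the + strand alone, in 31 the - strand alone and in 10 neither. When detection on all 12 arrays was asked for, both strands passed in 213 pairs (44.5%), the + strand alone in 91, the - strand alone in 95 and neither in 80. In uc.65, uc.127, uc.231 and uc.291 neither strand was detected on any array. Intensities of different probes depend on the probe and are not compared with each other, so that strand bias is described here by detection alone. Detection depends on the probe as well, and the part of the probe where a strand was not detected was not tested.

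**Figure D2:**
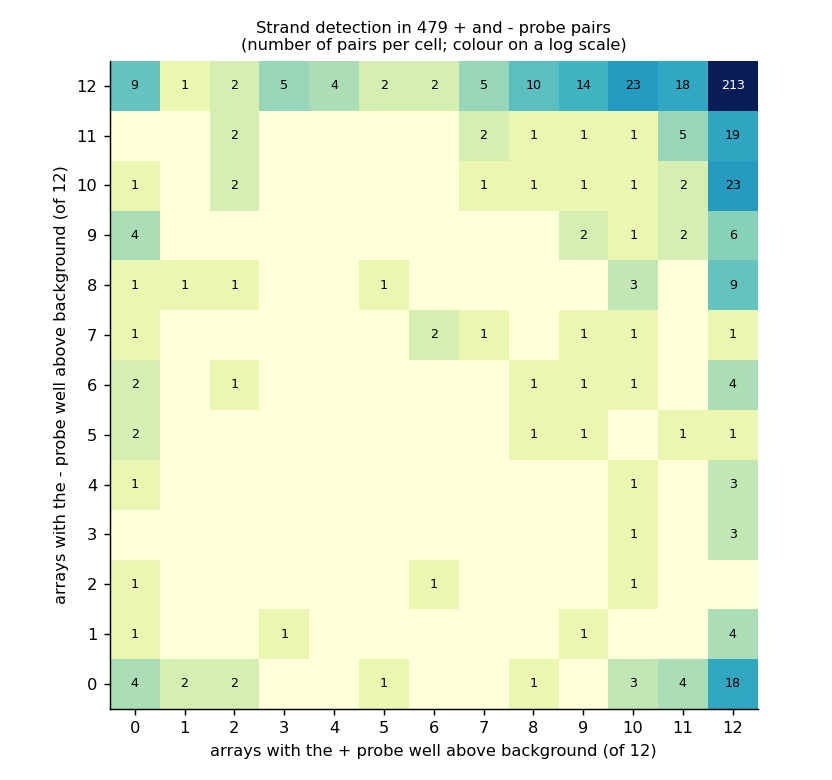
Number of arrays, of 12, on which the + probe (x axis) and the - probe (y axis) of each of the 479 pairs were well above background, with the number of pairs written in each cell and the colour on a log scale. The fullest cell, with 213 pairs, is the corner where both strands were detected on all 12 arrays, and 18 pairs and 9 pairs sit in the corners where one strand was detected on all arrays and the other on none.

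Full strand bias of detection, with one strand detected on all 12 arrays and its partner on 0, was seen in 27 pairs: 18 had the + strand (among them uc.16, uc.54, uc.59, uc.81, uc.126, uc.150, uc.181, uc.192, uc.267, uc.295, uc.315, uc.335, uc.382, uc.394, uc.426 and uc.464) and 9 had the - strand (uc.10, uc.60, uc.92, uc.95, uc.160, uc.221, uc.286, uc.320 and uc.332). The + probes followed were a probe of the study's list, described further on, and uc.335+, uc.426+ and uc.16+, picked for their signal over background, which depends on the probe too and gives no order of RNA levels. Over the arrays of each group, uc.426+ ranged from 9.37 to 9.78 in the Norm, 8.80 to 9.16 in the Diab and 8.81 to 9.92 in the Rev group, and the Norm and Diab ranges did not overlap (log2 change -0.54, adjusted p = 0.118). The uc.335+ probe lay between 9.10 and 10.55 in the Norm group, between 9.68 and 12.53 in the Diab group and between 9.92 and 11.74 in the Rev group, and the groups overlapped. Those picked on the - strand were uc.10-, uc.92-, uc.332- and uc.320-. The uc.10- probe lay between 10.39 and 10.75 in the Norm, 10.39 and 11.06 in the Diab and 10.26 and 11.45 in the Rev group. None of these 4 passed the test, with log2 changes in the Diab group of 0.13, 0.63, -0.04 and -0.15 (adjusted p of 0.747, 0.0608, 0.929 and 0.599), although the Diab arrays of uc.92- all lay above the Norm arrays.

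The comparison of the Diab with the Norm group asks which of these RNAs differ after lasting poor glycemic control. Of the 873 uc. probes tested, 80 passed an adjusted p of 0.05 (9.16%), 48 higher and 32 lower in the Diab group. Over all 9632 LncRNA probes tested the share was 10.9%, and by direction it was 6.3% higher and 4.6% lower, against 5.5% and 3.67% of the uc. probes. Of the 48 higher, 21 were + and 27 were - probes, and of the 32 lower, 19 were + and 13 were - probes. The study asked for at least a 2-fold difference and an unadjusted p under 0.05, and at that criterion 58 were called (6.64%; 6.73% of all LncRNA probes), 43 higher (4.93% against 4.91%) and 15 lower (1.72% against 1.82%). With limma here the criterion called 648 of all LncRNA probes in the Diab group and 293 in the Rev group. Both counts are lower than those the study reported, so these are not the study's own calls. At an unadjusted p under 0.05, 236 uc. probes passed in the Diab group (27.0% against 30.1%), 125 higher (14.3% against 15.4%) and 111 lower (12.7% against 14.7%). The Diab and Norm ranges did not overlap for 91 uc. probes higher (10.4% against 11.7%) and 104 lower (11.9% against 15.1%) in the Diab group, where the share over both directions was 26.8% of all LncRNA probes. The median log2 change over the uc. probes was -0.04 and over all LncRNA probes -0.03. By adjusted p, 21 of the 48 higher and 23 of the 32 lower were detected on all 12 arrays, and at the criterion of the study 14 of the 43 higher and 5 of the 15 lower. The higher ones included probes on 0 Norm arrays, 14 by adjusted p and 18 at the criterion, so that their Norm level is only a bound, and the lower ones included 1 probe on 0 Diab arrays by either rule.

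These counts rested on single arrays and on the scaling. By adjusted p, 38 were called without Norm replicate 3, 36 without Norm replicate 4, 42, 43, 47 and 30 without Diab replicates 1, 2, 3 and 4, and 179 without Rev replicate 3. That array enters through the normalization, the detection filter and the shared estimate of the spread, and the part of each was not tested. Scaling each array to its 75th percentile, which moved the median of all LncRNA probes to 0.27, gave 211 higher and 7 lower.

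Among the probes called by adjusted p, the 4 highest fitted changes were those of uc.433-, uc.226+, uc.57- and uc.68-, all with low Norm signals. The uc.433- probe measured 0.62, 0.66, 0.71 and 0.78 in the Norm group, 3.21, 4.04, 3.02 and 4.65 in the Diab group and 2.89, 3.79, 5.69 and 2.87 in the Rev group. It was detected on 0 Norm arrays and on all Diab and Rev arrays, and it was at least 1.02-fold higher in the Diab group. The bound takes, for each Norm array, the dimmest signal that still counted as detected. Its adjusted p of 0.0056 belongs to the fitted log2 change of 3.04. With low signals raised to the dimmest detected one of their array that change was 0.03 (adjusted p = 0.981), and with normexp background correction it was 0.30 (adjusted p = 0.270), so that the call was lost under both. The uc.68- probe lay between 0.52 and 0.60 in the Norm group, 2.30 and 2.51 in the Diab group and 2.17 and 2.97 in the Rev group, with adjusted p of 0.0002 in the Diab and 0.0004 in the Rev group. It was detected on 0 Norm, 4 Diab and 2 Rev arrays and its Diab mean stayed under the Norm bound, so no fold is given. The uc.226+ (adjusted p = 0.0240) and uc.128- (adjusted p = 0.0357) probes were not detected on any Norm array either. With low signals raised in the same way, the log2 change turned to -1.28 for uc.68-, -0.08 for uc.226+ and -0.11 for uc.128-. The uc.57- probe was detected on 2 Norm arrays, with 3.90, 3.67, 0.67 and 2.65 there against 4.67, 4.84, 4.67 and 4.39 in the Diab group (log2 change 1.92, adjusted p = 0.0354). Its change was 0.59 with low signals raised, where it stayed called, and 0.29 with normexp, where it did not (adjusted p = 0.0669). With single arrays left out, uc.433- and uc.68- stayed called, while uc.57- was lost without Norm replicate 4 or any Diab array, uc.226+ without Norm replicate 3 or 4 or Diab replicate 1, 2 or 3, and uc.128- without any Norm array or Diab replicate 1, 2 or 4.

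Among the probes detected on all 12 arrays, uc.301- and uc.352- rose with the lowest p values. The uc.301- probe gave 5.27, 5.03, 5.02 and 5.02 in the Norm group, 6.34, 6.71, 6.50 and 6.60 in the Diab group and 6.45, 6.72, 6.06 and 6.09 in the Rev group. Every Diab and Rev array lay above every Norm array, and the log2 change was 1.46 ± 0.17 (SE) in the Diab group (adjusted p = 0.0008) and 1.25 ± 0.17 in the Rev group (adjusted p = 0.0036). The uc.352- probe gave 5.65, 5.70, 5.53 and 5.82 in the Norm group, 6.63, 6.74, 6.46 and 6.48 in the Diab group and 6.70, 6.64, 6.65 and 6.37 in the Rev group. Its ranges were again apart, with log2 changes of 0.90 ± 0.14 in the Diab (adjusted p = 0.0031) and 0.91 ± 0.14 in the Rev group (adjusted p = 0.0060). Both kept an adjusted p under 0.05 against Norm in the Diab and in the Rev group with each of the 12 arrays left out.

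The study lists 4 ultraconserved regions among its upregulated LncRNAs. Of their probes on both strands, the 4 that rose most in the Diab group stand in the plot of single probes as the first 4 panels. The other tested probes had log2 changes of -0.29, -0.30 and 0.77 in the Diab group and were not called. That list was drawn from these same arrays, so the count of 3 of 7 tested probes called here by adjusted p is not independent evidence of its direction. The study filtered by fold and unadjusted p and gives the numbers without a strand, while the 7 take in both strands. In the Rev group 0 of them were called by adjusted p. The - strand probe of these panels measured 11.23, 11.09, 10.21 and 10.47 in the Norm, 12.47, 13.19, 12.18 and 11.79 in the Diab and 12.59, 11.80, 11.10 and 11.38 in the Rev group. The Diab arrays were all above the Norm arrays (adjusted p = 0.0148) and the Rev arrays overlapped them. The Diab call of this probe held with any single array left out. It was lost with array brightness as a covariate, without the 3 dimmest arrays together and without replicate 2 of every group. The + probe of the third panel, whose partner on the - strand was detected on 0 arrays, measured 11.92, 11.96, 12.04 and 12.40 in the Norm, 14.48, 12.65, 13.30 and 14.59 in the Diab and 14.20, 12.91, 14.65 and 13.56 in the Rev group. Both diabetic groups were apart from the Norm group, with adjusted p of 0.0299 in the Diab and 0.0575 in the Rev group, and the former was lost when Norm replicate 1, 2, 3 or 4 or Diab replicate 1 or 4 was left out. The + probe that was detected on 2 Norm arrays was called too (adjusted p = 0.0322), and the call was lost without Norm replicate 3 or 4 or Diab replicate 1, 3 or 4. The + probe in the last of these 4 panels gave 7.32, 9.21, 6.94 and 9.16 in the Diab group against 5.67 to 6.34 in the Norm group, and it spread widely (adjusted p = 0.0914).

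**Figure D3:**
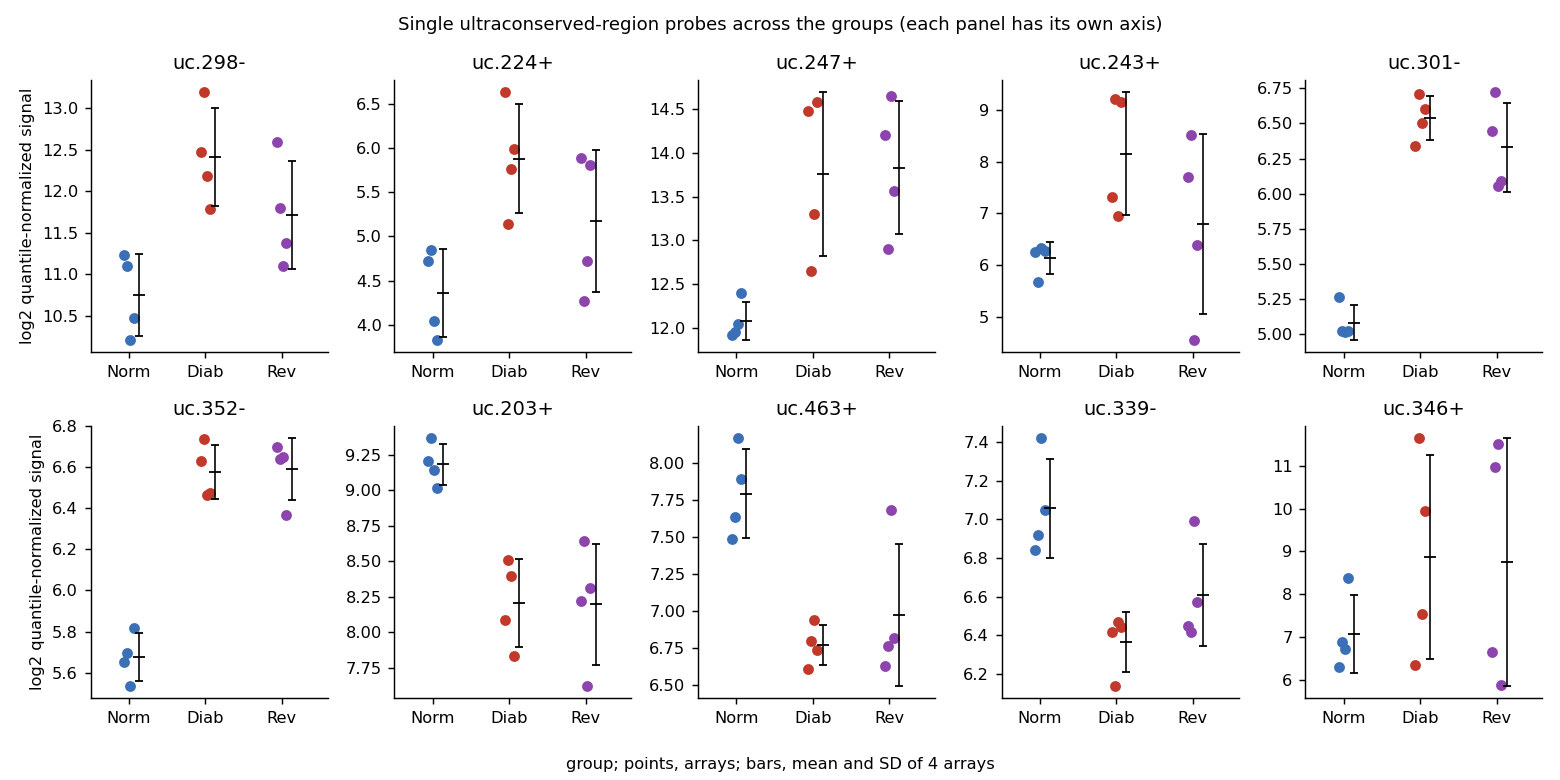
Log2 quantile-normalized signal (y axis, scaled separately in each panel) of 10 uc. probes in the Norm, Diab and Rev groups (x axis), with a point per array and bars for the mean and SD of 4 arrays. The first 4 panels show the probes that rose most in the Diab group among the 7 tested probes of the study's list. They are followed by uc.301- and uc.352-, with all Diab and Rev arrays above all Norm arrays, uc.203+, with them all below, and uc.463+. The last pair of panels shows the lower probe among the regions of described function and the probe with the widest spread, at 5.89 to 11.50 in the Rev group.

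Among probes called by adjusted p, detected on every Norm array and with ranges that did not overlap, the 8 largest falls were all on the + strand: uc.120+, uc.343+, uc.463+, uc.352+, uc.203+, uc.197+, uc.399+ and uc.396+, with log2 changes from -1.09 to -0.88 and adjusted p from 0.0157 to 0.0370. Of the probes called by adjusted p, uc.353-, uc.451+ and uc.317- had larger fitted falls and were detected on 3, 3 and 4 of the 12 arrays. The filter on Norm detection also left out uc.164-, with a log2 change of -0.99. Of the 32 lower by adjusted p, 19 were + and 13 were - probes. The uc.463+ probe measured 7.48, 7.63, 8.16 and 7.89 in the Norm, 6.61, 6.80, 6.94 and 6.74 in the Diab and 6.63, 6.77, 7.68 and 6.82 in the Rev group. All Diab arrays lay below the Norm arrays, while Rev replicate 3 lay among the Norm arrays. The uc.203+ probe measured 9.21, 9.37, 9.14 and 9.02 in the Norm, 8.09, 8.51, 8.40 and 7.83 in the Diab and 8.22, 8.64, 7.62 and 8.31 in the Rev group. Both diabetic groups lay below the Norm group, each by a log2 change of -0.98 (adjusted p of 0.0157 and 0.0339). With 1 array left out, the fall in the Diab group missed the threshold for uc.463+ without Norm replicate 3 and for uc.203+ without Diab replicate 4. The other 6 each missed it without Norm replicate 3 and without 3 or more of the other arrays. With array brightness as a covariate, only uc.203+ among the 8 stayed called in the Diab group. With scaling to the 75th percentile or with normexp background correction, uc.120+, uc.343+, uc.197+, uc.399+ and uc.396+ lost the call too.

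A call on one strand and none on the other does not show that the strands differ, so the difference between the + and the - probe of a pair was taken on each array and its change between groups was tested. Of the 403 pairs with both probes tested, 38 changed between the Norm and Diab groups (9.43%), which is the share over every pair tested, 18 toward the + strand (4.47%) and 20 toward the - strand (4.96%). The median size of the change was 1.31 on the log2 scale. In all 38 the probes had log2 changes of opposite sign, a pattern that a test of the difference between them favors. By the single-probe test both strands were called, in opposite directions, in 4 of the 38, 1 strand in 24 and neither in 10. Of the 38, 17 had both strands detected on all 12 arrays and 4 had a strand detected on 0 Norm arrays.

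Over all 403 pairs the strands did not move together. The log2 changes of the + and - probes had the same sign in 193 pairs (47.9%), and across pairs their Pearson correlation was -0.02 (n = 403 pairs, measured on the same 8 arrays). The pairs uc.234 and uc.249 were called higher on both strands. In the bulk of the pairs, 334, neither strand was called, and in 63 one strand was.

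**Figure D4:**
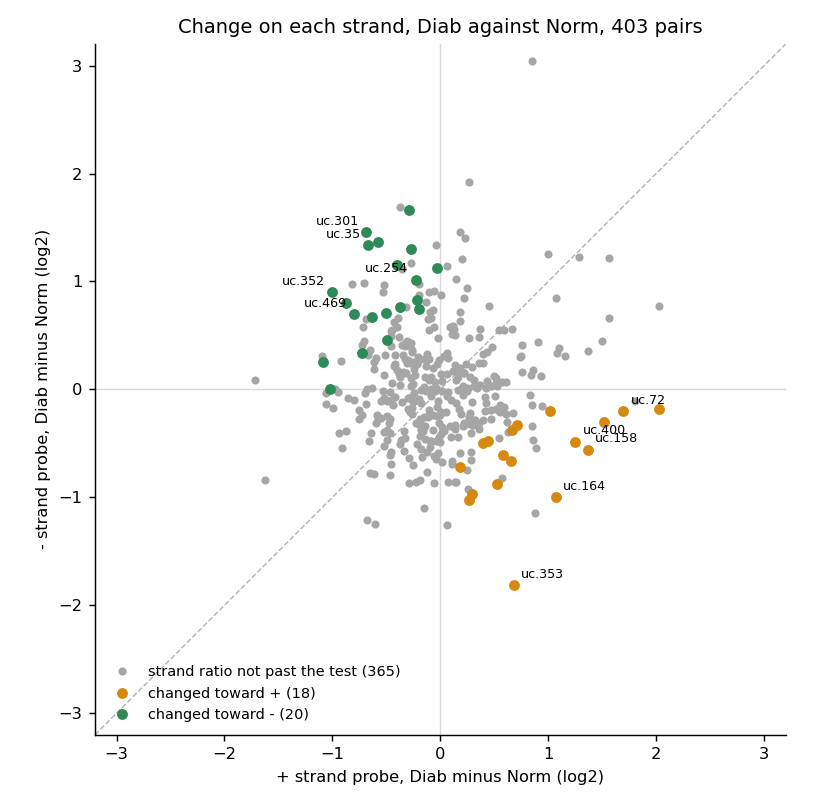
Log2 change from Norm to Diab of the + probe (x axis) and of the - probe (y axis) in 403 pairs, each point a pair, with the dashed line marking equal change. The 38 pairs whose strand ratio changed, 18 toward + and 20 toward -, lie in the quadrants of opposite sign, which a test of the difference favors. The Pearson correlation over all pairs is -0.02.

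The 4 pairs called on both strands in opposite directions were uc.352, uc.469, uc.164 and uc.353. For uc.352 the + probe fell while the - probe rose: uc.352+ measured 9.09, 9.13, 9.69 and 9.51 in the Norm, 8.15, 8.57, 8.55 and 8.15 in the Diab and 8.28, 8.62, 9.50 and 8.40 in the Rev group. Its log2 change was -1.0 ± 0.26 (SE) in the Diab group (adjusted p = 0.0275), against the rise of 0.90 of uc.352-. The ratio of + to - changed by -1.90 ± 0.30 in the Diab (adjusted p = 0.0051) and by -1.57 ± 0.30 in the Rev group (adjusted p = 0.0135), and its range was apart from that of the Norm group in both. The call of uc.352+ was lost without Norm replicate 3 or 4 or Diab replicate 1 or 4 and that of the Rev ratio without Norm replicate 3 or Rev replicate 1, while the Diab ratio stayed called with any array left out.

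The uc.469 pair moved the same way. The + probe measured 5.99, 5.96, 6.50 and 6.36 in the Norm and 5.30, 5.50, 5.49 and 5.34 in the Diab group, and the - probe 4.59, 4.58, 4.21 and 4.45 in the Norm and 5.10, 5.10, 5.05 and 5.37 in the Diab group. Both sets of ranges were apart (adjusted p of 0.0312 and 0.0467), and the ratio changed by -1.49 ± 0.26 (adjusted p = 0.0053). In the Rev group the ratio changed by -1.24 (adjusted p = 0.0207). The Diab ratio stayed called with any array left out, but uc.469+ was lost without Norm replicate 3 or 4 or any Diab array, and uc.469- without any array but Rev replicates 2 and 3.

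The uc.164 and uc.353 pairs moved toward the + strand. The uc.164+ probe measured 6.76, 6.37, 5.95 and 5.82 in the Norm, 7.50, 7.18, 7.22 and 7.29 in the Diab and 7.46, 7.46, 6.51 and 7.16 in the Rev group. The uc.164- probe measured 4.31, 4.30, 4.25 and 4.70 in the Norm, 3.40, 3.07, 3.65 and 3.45 in the Diab and 3.27, 3.18, 3.80 and 3.83 in the Rev group. The Diab arrays lay above the Norm arrays for the + probe (adjusted p = 0.0177) and below them for the - probe (adjusted p = 0.0091), and the ratio changed by 2.07 ± 0.38 (adjusted p = 0.0069). The uc.353+ probe, whose region bears the number next to uc.352, gave 4.54 to 5.08 in the Norm and 5.33 to 5.75 in the Diab group (adjusted p = 0.0287). Its partner uc.353- gave 3.38 to 3.62 and 0.51 to 2.40, but it was detected on 2 Norm arrays, 1 Diab array and 0 Rev arrays, so that the size of its fall is loosely measured. With normexp background correction the Diab calls of uc.164-, uc.353+ and uc.353-, like that of uc.469-, were lost (adjusted p from 0.0544 to 0.209), while the ratios of all 4 pairs stayed called in the Diab group. With array brightness as a covariate the Diab ratio calls of all 4 pairs were lost. That of uc.353 was also lost with an unpaired test with equal variances and without Norm replicates 3 and 4 and Rev replicate 3 together. Without Norm replicate 3 or 4 uc.164+ was no longer called, and neither was uc.353+ without Norm replicate 2 or 4 or any Diab array.

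**Figure D5:**
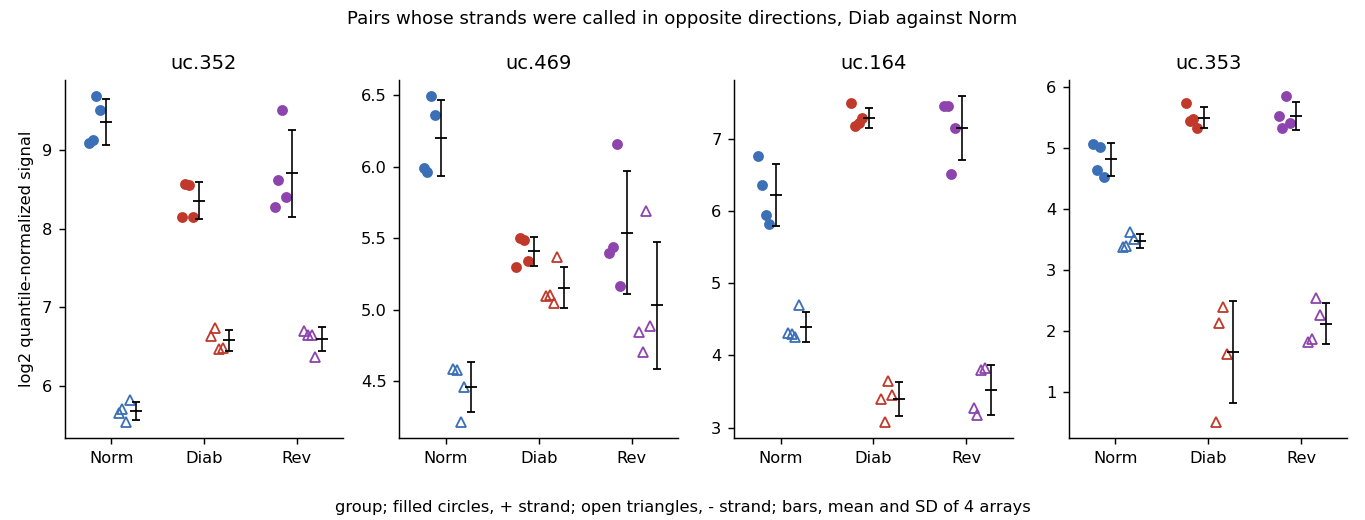
Log2 quantile-normalized signal (y axis) of both probes of uc.352, uc.469, uc.164 and uc.353 in the Norm, Diab and Rev groups (x axis), with filled circles for the + strand, open triangles for the - strand and bars for the mean and SD of 4 arrays. Heights of the + and - probes are not comparable with each other. Between Norm and Diab the + probe goes down and the - probe up in uc.352 and uc.469, and the reverse holds in uc.164 and uc.353.

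Other pairs with large ratio changes moved mainly on one strand. In uc.301 the ratio changed by -2.14 ± 0.40 (adjusted p = 0.0069), with a log2 change of 1.46 for the - probe and -0.69 for the + probe (adjusted p = 0.190), which was detected on 1 Norm array. In uc.35 the ratio changed by -2.0 ± 0.33 (adjusted p = 0.0051), although its - probe was detected on 1 Norm array and its + probe on 2. The size was -0.79 with low signals raised to the dimmest detected one (adjusted p = 0.125) and -0.25 with normexp background correction (adjusted p = 0.0923), so that the call was lost under both. In uc.400 it changed by 1.73 ± 0.36 (adjusted p = 0.0159), where uc.400+ gave 3.60 to 4.89 in the Norm and 5.52 to 5.73 in the Diab group. For uc.254, whose ratio changed toward the - strand, and uc.158, whose ratio changed toward the + strand, one probe was detected on 0 Norm arrays and no size is given. With low signals raised to the dimmest detected one, the change of uc.254 turned to 0.41. With array brightness as a covariate 2 pairs passed in place of 38, while 9 passed without the 3 dimmest arrays. Leaving out Norm replicate 3 or 4 left 10 or 9, leaving out Diab replicate 2, 3 or 4 left 13, 19 or 11, and leaving out Rev replicate 3 gave 60.

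The comparison of the Rev with the Norm group asks what differs after good control has been restored, and it shares the Norm arrays with the comparison above. By adjusted p, 14 uc. probes were called (1.60%; 2.47% of all LncRNA probes), 11 higher (1.26% against 1.63%) and 3 lower (0.344% against 0.841%) in the Rev group. The higher were uc.26+, uc.68-, uc.72+, uc.156-, uc.178-, uc.234+, uc.254-, uc.301-, uc.329-, uc.352- and uc.433-, and the lower uc.164-, uc.203+ and uc.451+. At the criterion of the study, 29 were called (3.32%; 3.04% of all LncRNA probes), 26 higher (2.98% against 2.4%), of which 16 were on 0 Norm arrays, and 3 lower (0.344% against 0.644%). At an unadjusted p under 0.05, 143 passed (16.4% against 18.3%), 93 higher (10.7% against 11.3%) and 50 lower (5.73% against 6.96%). The Rev and Norm ranges were apart for 49 uc. probes higher (5.61% against 6.9%) and 18 lower (2.06% against 3.26%), with 10.2% of all LncRNA probes over both directions. The strand ratio changed in 8 pairs (1.99% of all pairs), 5 toward the - strand (1.24%) and 3 toward the + strand (0.744%), namely uc.301, uc.35, uc.352, uc.254 and uc.469 toward the - strand and uc.164, uc.353 and uc.72 toward the + strand. Of these, uc.35 and uc.254 stayed called with any array left out but not with low signals raised to the dimmest detected one (log2 changes of -0.74 and 0.26, adjusted p of 0.234 and 0.790) or with normexp background correction (adjusted p of 0.176 and 0.0796), and the others that were followed were lost without Norm replicate 3 or Rev replicate 1.

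Beside uc.301- and uc.352-, which are given above, uc.156-, uc.329-, uc.178- and uc.26+ were called in the Rev group with Diab changes of like size. The uc.329- probe measured 5.80, 5.43, 5.36 and 5.73 in the Norm, 6.52, 6.36, 6.27 and 6.27 in the Diab and 6.54, 6.17, 6.45 and 6.18 in the Rev group. Its log2 change was 0.77 ± 0.16 (SE; adjusted p = 0.0097) in the Diab and 0.76 ± 0.16 (adjusted p = 0.0270) in the Rev group, and neither diabetic group overlapped the Norm group. The uc.156- probe lay between 5.99 and 6.42 in the Norm, 6.76 and 7.26 in the Diab and 6.78 and 7.11 in the Rev group, with log2 changes of 0.74 and 0.68. The uc.26+ probe lay between 4.67 and 4.85, 5.23 and 5.68, and 5.28 and 5.35, with log2 changes of 0.68 and 0.56 (adjusted p of 0.0086 and 0.0431). The uc.254- probe lay between 1.82 and 2.19 in the Norm group, where it was detected on 0 arrays, 2.93 and 3.21 in the Diab and 2.88 and 3.32 in the Rev group, and no fold is given, since with low signals raised to the dimmest detected one its change turned to -0.64 in both. The Rev calls of uc.26+, uc.156-, uc.178- and uc.164- were near the threshold: the first 3 held in 2 of the 12 fits with an array left out and uc.164- in 3, all of them lost without Norm replicate 1, 3 or 4. That of uc.329- was lost without Norm replicate 2 or 3 or Rev replicate 1 or 4, and that of uc.203+ without any Norm array, Diab replicate 1 or Rev replicate 1 or 4, while those of uc.301-, uc.352-, uc.254-, uc.433- and uc.68- held in all 12.

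The number of Rev calls also followed single arrays: 91 passed without Rev replicate 3, 24 without Norm replicate 1, 7 without Norm replicate 3, Norm replicate 4, Rev replicate 1 or Rev replicate 4, and 8 without Diab replicate 4. With scaling to the 75th percentile, 143 were higher and 2 lower, and with normexp background correction 2 were called, uc.301- and uc.352-.

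The direct comparison of the Diab with the Rev group, which share no array, called 0 uc. probes by adjusted p (0.0% of all LncRNA probes) and 0 at the criterion of the study (0.0623% of all, 0.0415% higher and 0.0208% lower) with limma. At an unadjusted p under 0.05, 11 passed (1.26%; 1.53% of all LncRNA probes), 6 higher (0.687% against 0.841%) and 5 lower (0.573% against 0.685%) in the Diab group, and the strand ratio passed in 0 pairs by adjusted p and in 2 at an unadjusted p under 0.05. The ranges were apart for 8 uc. probes higher (0.916% against 1.13%) and 6 lower (0.687% against 0.82%) in the Diab group, with 1.95% of all LncRNA probes over both directions. The probes with the lowest p were uc.236-, with a log2 difference of 0.50, and uc.8-, with 0.45 (adjusted p = 0.998 for both). For the probes described above the difference was small beside its error for uc.352- (-0.01 ± 0.14, SE) and uc.203+ (0.01 ± 0.22), and it was 0.21 ± 0.17 for uc.301- and 0.69 ± 0.36 for the - probe of the study's list. With 4 rats per group a missing call does not show that the levels were alike.

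Of the transcribed ultraconserved regions with a described function, 15 numbers were followed on both strands, 30 probes in all. On all 12 arrays 22 of them were detected, and 2, among them uc.160+, on 0 arrays. In the Diab group 2 of the 28 tested were called by adjusted p, uc.230- higher and a - probe lower, where 10.9% of all LncRNA probes were called, and in the Rev group 0 were, where 2.47% of all LncRNA probes were. Their median log2 change in the Diab group was -0.09, against -0.03 for all LncRNA probes. The lower one, shown in the ninth panel of the plot of single probes, measured 6.84, 6.92, 7.42 and 7.05 in the Norm, 6.42, 6.14, 6.47 and 6.45 in the Diab and 6.45, 6.42, 6.99 and 6.57 in the Rev group (log2 change in the Diab group -0.69 ± 0.18, adjusted p = 0.0284). Its Diab arrays lay below the Norm arrays, and the call was lost without Norm replicate 3 or 4 or Diab replicate 1, 2 or 4. The uc.230- probe, from a region described in intestinal epithelium, was detected on 0 Norm arrays, and its call (adjusted p = 0.0284), which turned to a log2 change of -0.52 with low signals raised to the dimmest detected one, was lost without any one of Norm replicates 1, 2 and 4 or of the Diab arrays.

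The region uc.48 has been described in nerve pain of diabetic rats. Its + probe gave 8.33, 8.49, 8.29 and 7.90 in the Norm, 8.62, 8.30, 8.47 and 8.47 in the Diab and 8.47, 8.45, 9.01 and 8.31 in the Rev group, which overlapped (log2 change in the Diab group 0.21 ± 0.18, adjusted p = 0.460). The uc.48- probe gave 8.13 to 8.34 in the Norm and 7.65 to 8.11 in the Diab group (-0.34 ± 0.14, adjusted p = 0.120), ranges that did not overlap. The uc.160- probe, of a region silenced by DNA methylation in tumors, was detected on all 12 arrays while its + partner was detected on 0. In the uc.8, uc.63 and uc.73 pairs, described in tumors, 0 probes were called, and the - probe of uc.73 had a log2 change of 0.91 ± 0.37 (adjusted p = 0.126). The largest change among the list's probes on all 12 arrays, apart from the one of widest spread, was 0.85 on the log2 scale.

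The probes differed widely in how far the rats of a group spread. Over the 612 detected on all 12 arrays, the SD within groups, pooled over the 3 groups, had a median of 0.35 on the log2 scale and ranged from 0.08 to 2.22. It was over 1 in 9 probes, which are the one of the last panel of the plot of single probes, the wide one of the study's list, uc.50+, uc.88+, uc.86-, uc.335+, uc.23+, uc.47- and uc.279-. The widest, a + probe of a region also silenced by DNA methylation in tumors, measured 6.30, 6.88, 6.72 and 8.39 in the Norm, 6.35, 11.64, 7.55 and 9.95 in the Diab and 6.64, 10.97, 11.50 and 5.89 in the Rev group. The lowest and the highest of these arrays were 53.8-fold apart, the groups overlapped, and its log2 change of 1.80 in the Diab group had an SE of 1.33 (adjusted p = 0.383). The - probe of the same pair had an SD of 0.28 to 0.39 in each group. The uc.47- probe lay at 12.12, 11.90, 9.63 and 9.81 in the Norm group and at 12.20 to 13.21 in the Diab group, so that the Norm arrays alone spanned more than the distance between the group means, and the ranges did not overlap (log2 change 1.69, adjusted p = 0.0921).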

How the data were processed

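Retinal RNA of 12 rats was labeled with Cy3 by the authors and hybridized to 1 array per rat, and images were extracted with Agilent Feature Extraction (version 11.0.1.1, per the file headers). The deposited files give, per spot, the processed signal, an intensity that the software corrected for background and that is not normalized between arrays, together with median spot and background intensities and the software's flags. They precede the quantile normalization that the authors ran in GeneSpring.

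Processed signals were brought to log2 and flagged outlier spots were left out (2 values of uc. probes). The 38804 probes outside the controls were quantile-normalized with limma (version 3.58.1) in R (version 4.3.3). Probes well above background on at least 3 of 12 arrays, with 2 or more unflagged arrays per group, were tested in 1 limma fit over LncRNA and mRNA probes and the 3 groups (9 residual degrees of freedom), and p values were adjusted by Benjamini-Hochberg over the 9632 LncRNA probes. The + minus - log2 difference per array was fitted in the same way over the 403 pairs. The methods of the study give a one-way ANOVA with post-hoc tests for its statistics in general and name no test for the filtering of the arrays, so limma was used. Where no array of a group detected a probe, its level there is only a bound, taken from the dimmest detected signal of each array. The probes named were the 4 numbers of the study's list, up to 8 of the largest changes per direction and contrast among called probes whose groups did not overlap and that were detected on every array of the brighter group, 15 numbers known from the literature, the 4 ratio changes per direction with the highest moderated t, and the fully strand-biased pairs with the highest signal over background, up to 4 per strand. Other probes named (called in the Rev group, of high spread, of lowest p between Diab and Rev, or changed on both strands) were chosen after their values were seen. Members and lists were chosen with earlier results of these data known. Each array is a separate rat, and precision is limited by 4 per group. Of all spots outside the controls, 0 were saturated. The scripts were tested on simulated data.

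Alternatives were scaling to the 75th percentile, quantile normalization within the LncRNA class, cyclic loess, normexp on the median signal (offset 50), dropping the filter on detection, asking for detection on all 12 arrays or for the flag of a positive and significant signal, raising low signals to the dimmest detected one, only the groups compared, an unpaired test with equal variances, trend and robust moderation, adjustment over LncRNA and mRNA probes, the replicate block, array brightness as a covariate, a 1.5-fold minimum, and each array or the 3 dimmest left out. Leaving out replicate 2 of every group was chosen after seeing the data. Tables and plots were made in Python (version 3.11.15) with pandas (version 2.3.3) and matplotlib (version 3.10.9).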

Additional observations from a re-analysis of the deposited data

Results flagged for a closer look

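In a group of 4, an array was singled out when its gap to the nearest of the others, as a share of the range of the group, exceeded Dixon's 95% critical value. Of 252 groups checked, 19 had such an array, and chance gives about 1 in 20. Rev replicate 3 accounted for 8 of them, at 5.38 for uc.197+, 4.09 for uc.35+, 2.67 for uc.158+, 9.91 for uc.16+ and 9.92 for uc.332-, at 7.13 for a - partner of the study's list, and at 8.54 and 8.43 for + probes of regions with a described function. This array was also the farthest from its group over all uc. probes. Rev replicate 2 stood apart at 6.02 for uc.8+ and 3.01 for uc.23+, and Diab replicate 2 at 6.14 for the lower probe among the regions of described function. In the Norm group, replicate 1 stood apart at 5.27 for uc.301-, replicate 4 at 4.70 for uc.164-, replicate 3 at 2.97 for uc.230- and at 7.37 for a - probe of described function, and replicate 2 at 5.32 for a + partner and 5.67 for the wide probe of that list. The 880 uc. probes detected on Diab replicate 4 and the SD of 0.473 of the uc. probes of Norm replicate 3 from their group mean were the other values singled out.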

How the results depend on the processing

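The count of uc. probes detected on at least 3 arrays was 897 on at least 1 array, 836 on all 4 arrays of any group, 612 on all 12 arrays and 942 with the positive and significant flag, and 865 to 873 with single arrays left out. With single arrays left out, the criterion of the study gave 43 to 78 probes in the Diab group, 22 to 41 in the Rev group and 0 to 2 between Diab and Rev. By adjusted p the ranges were 30 to 179, 7 to 91 and 0 to 0, and 9 to 60 pairs changed their strand ratio in the Diab group. Scaling to the 75th percentile gave 117 (115 higher, 2 lower) at the criterion and 218 by adjusted p in the Diab group, and 83 and 145 in the Rev group, with the median of all LncRNA probes at 0.27 and 0.26. Normexp gave 8 and 29 in the Diab group and 2 and 2 in the Rev group. Detection on all 12 arrays, where fewer probes were tested, left 19 and 39, 4 and 3, and 17 pairs. Array brightness as a covariate gave 90 and 42, 64 and 47, 2 pairs, and 1 probe at the criterion between Diab and Rev. Without the 3 dim arrays the criterion gave 35, 16 and 1 and the ratio 9 pairs, and a 1.5-fold minimum gave 171, 86 and 3. By adjusted p, cyclic loess gave 123 in the Diab and 36 in the Rev group, and fits of only the groups compared 132 and 6, with 1 at the criterion between Diab and Rev. For the Rev group, quantile normalization within the LncRNA class gave 25, no detection filter 22, and adjustment over LncRNA and mRNA probes 8 by adjusted p. The floor gave 44 at the criterion and 35 by adjusted p, and the test with equal variances 17 and 3, besides 9 pairs in the Diab group. Leaving out replicate 2 of every group, chosen after seeing the data, gave 14 in the Diab and 1 in the Rev group, and 7 pairs. The cause of these differences was not tested.

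The rats were not treated as paired by replicate number, which equals the position on the slide: the correlation of same-numbered deviations ran from -0.277 to 0.638, and it was positive in all 3 pairs of groups for replicate 2 alone (0.275, 0.313 and 0.638). With the replicate block 127 uc. probes were called by adjusted p in the Diab and 28 in the Rev group, 69 pairs changed their ratio, and 1 probe passed the criterion between Diab and Rev.

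Directions turned in these cases. With the 75th percentile the log2 change was 0.162 (Diab) and 0.0892 (Rev) for the + partner of the study list's - probe, 0.0487 and 0.105 for the - partner of the list's probe detected on 2 Norm arrays, 0.238 and 0.0075 for uc.254+, and in the Rev group 0.0111 for uc.35+ and 0.0066 for uc.158-. With the brightness covariate it was 0.0759 and 0.0062 for the first and 0.365 and 0.348 for the second of these partners. With the floor it was -0.0782 and -0.308 for uc.226+, -1.28 and -1.11 for uc.68-, -0.107 and -0.515 for uc.128-, -0.636 and -0.642 for uc.254-, -0.539 and -0.745 for uc.158+ and -0.518 and -0.911 for uc.230-. It was also -0.0174 for uc.35- in the Diab group and -0.0788 in the Rev group for the - partner of the study list's wide probe, and the strand ratio changed by 0.406 and 0.260 for uc.254 and by -0.438 in the Rev group for uc.158. Without replicate 2 of every group that wide probe gave -0.0727 in the Rev group. Precision is limited by 4 arrays per group, and for dim probes by how little the signal exceeds background.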

Other observations

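The position of an array on its slide equals its replicate number. Among the 612 uc. probes detected on all 12 arrays, replicate 2 was the lowest of its group in all 3 groups for 61 probes and the highest in all 3 for 44. The counts were 15 and 12 for replicate 1, 32 and 39 for replicate 3, and 3 and 0 for replicate 4. Among the most variable probes, uc.50+ had its lowest value on replicate 2 in every group, at 6.76 in the Norm, 6.00 in the Diab and 6.29 in the Rev group, and so did uc.23+, at 3.38, 3.03 and 3.01, and uc.279-, at 5.05, 3.72 and 4.22. The part of the slide position in these values was not tested.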
